A study of Mus musculus with 3 samples.

Results

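Transversions are single-base differences in which a purine (A or G) takes the place of a pyrimidine (C or T) or the reverse. Here they are the entries of the chromosome X variant lists of 3 LSD1 chromatin libraries with 1 base in the reference (B6) and 1 in the variant column that pair a purine with a pyrimidine, without the few at positions with 2 entries (3, 2 and 0 of them). This left 157429 of 442835 listed entries in the fibroblast library, 71224 of 199038 in the reprogramming library without Shield1 and 48102 of 126279 in the one with Shield1. Over all 3 libraries these are 252948 different transversions of 698732 different entries. The choice used only the 2 bases, not the reads. A substitution and its mirror on the other strand were counted together, which leaves 4 classes. G to T with C to A is called the oxidation class, and A to C with T to G, the same bases in the opposite direction, the reverse class. The other 2 are A to T with T to A, and C to G with G to C.

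LSD1 (Kdm1a) is a histone demethylase, and the DNA bound to it was isolated from sonicated mouse chromatin with an antibody. The MEF group is mouse embryonic fibroblasts, a somatic cell, at day 0. The LowK group is fibroblasts given SeVdp(fKOSMaB), a reprogramming vector, and taken at day 20 with no Shield1 added. The MidK group is the same at day 20 with Shield1 at 30 nM, a small molecule that keeps proteins with a destabilising domain from being degraded. Each group holds 1 library, so no value has a replicate check and no test between groups was made. The vector, 20 days of culture and a change of cell state came together in LowK and MidK, so their parts in a difference from MEF cannot be told apart. Neither the strain carrying the variant bases nor the sex of the cells is stated in the labels, and no input library was used. Chromatin reads carry no level of expression, so the labelled cell types could not be checked against marker genes.

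Transitions, the exchange of a purine for a purine or a pyrimidine for a pyrimidine, are the more frequent kind of point difference in mammalian genomes, and cytosine deamination at methylated CG pairs is a main source of them. Guanine is the base most easily oxidised, and the product, 8-oxoguanine, can pair with adenine, which gives G to T or, read from the other strand, C to A. The glycosylases OGG1 and MUTYH repair this damage in cells, and the same damage can also arise in DNA while it is sheared and handled. An inherited difference between 2 mouse strains is seen in either direction depending on which strain carries the new base, so the reverse class serves as a comparison for the oxidation class.

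The following sequences, from the RefSeq promoter table of GRCm38.p6 (the build called mm10), show transversions listed in all 3 libraries in a promoter window, here 250 bases before to 50 after an annotated start. They were picked, with their values known, from 3 of the 4 classes beside genes of known function. Each is written 5′ to 3′ on the strand of the gene, with 30 bases on either side, and the capital is the B6 base at the listed position. The first group belongs to the oxidation class, G to T on the gene strand. The genes are Vbp1, a subunit of the prefoldin chaperone, Phka1, a subunit of muscle phosphorylase kinase, and Nup62cl, a relative of a nuclear pore protein.
Vbp1 (chrX:75514182-75514242, plus strand, position -85 from the start): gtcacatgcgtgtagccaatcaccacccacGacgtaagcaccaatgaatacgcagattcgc
Phka1 (chrX:102644316-102644376, minus strand, position -100): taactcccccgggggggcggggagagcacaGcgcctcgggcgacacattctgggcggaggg
Nup62cl (chrX:140062649-140062709, minus strand, position -111): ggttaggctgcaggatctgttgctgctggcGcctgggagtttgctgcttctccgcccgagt
The second group belongs to the class of C to G with G to C. The genes are Klhl15, a substrate adaptor of a cullin ubiquitin ligase, Gpc4, a cell-surface heparan sulfate proteoglycan, Fgd1, an exchange factor for Cdc42, and Timm8a1, a mitochondrial import factor.
Klhl15 (chrX:94234866-94234926, plus strand, position -34): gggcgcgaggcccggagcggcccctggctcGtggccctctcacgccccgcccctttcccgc
Gpc4 (chrX:52164999-52165059, minus strand, position -106): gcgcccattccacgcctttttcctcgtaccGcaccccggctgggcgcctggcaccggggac
Fgd1 (chrX:151046994-151047054, plus strand, position -146): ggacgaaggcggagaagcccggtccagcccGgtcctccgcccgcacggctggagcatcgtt
Timm8a1 (chrX:134541773-134541833, minus strand, position -133): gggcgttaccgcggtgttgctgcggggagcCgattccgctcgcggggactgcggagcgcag
The last promoter, of the copper transporter Atp7a, has an A to C difference, of the reverse class. The mature microRNA mmu-miR-718, on the minus strand at chrX:74023857-74023877, is shown because it held the 1 transversion found in a mature microRNA, with its seed (bases 2 to 8) in capitals.
Atp7a (chrX:106027043-106027103, plus strand, position -151): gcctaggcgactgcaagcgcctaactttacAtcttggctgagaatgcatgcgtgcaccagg
mmu-miR-718: cUUCCGCCcggccgggugucg

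Transversions made up 38.2% of the single-base sites in MEF (38.1% to 38.4%, an exact 95% Clopper-Pearson interval), 38.1% in LowK (37.9% to 38.3%), and in MidK it was 40.3% (40.1% to 40.6%). That is 1.62, 1.62 and 1.48 transitions per transversion, so the MidK list held relatively more transversions. Intervals here and below cover counting error only, and they are too narrow because 1 read can cover several listed sites. The transversions carried 337889 reads by allele in MEF, 112816 in LowK and 84124 in MidK, or 2.15, 1.58 and 1.75 reads per site. Sites with a single read made up 48.0%, 68.2% and 69.6%, so most sites of LowK and MidK rest on 1 read. No site was deeper than 250 reads.

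The oxidation class and the reverse class were of nearly the same size in MEF and MidK, and the oxidation class was the smaller in LowK. The oxidation class held 27.6% of MEF transversions (43491 sites), 26.7% of LowK (19048) and 27.8% of MidK (13385). The reverse class held 27.8% (43751), 28.5% (20267) and 27.9% (13435). The number of oxidation sites per reverse site was 0.994 in MEF (0.981 to 1.007), 0.940 in LowK (0.921 to 0.959), and in MidK it was 0.996 (0.973 to 1.02). These values moved with the depth of the sites kept. Over sites with at least 2 reads MEF had 1.06 (1.04 to 1.08) and MidK 1.08 (1.03 to 1.12), both above 1. LowK had 1.02 (0.988 to 1.06) there, and 1.003 (0.965 to 1.043) at a reliability score of at least 20. The LowK value thus turned from below 1, though both of these LowK intervals hold 1. The 2 strands gave the same picture, since G to T and C to A numbered 21747 and 21744 in MEF, 9506 and 9542 in LowK, and 6646 and 6739 in MidK.

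**Figure D1:**
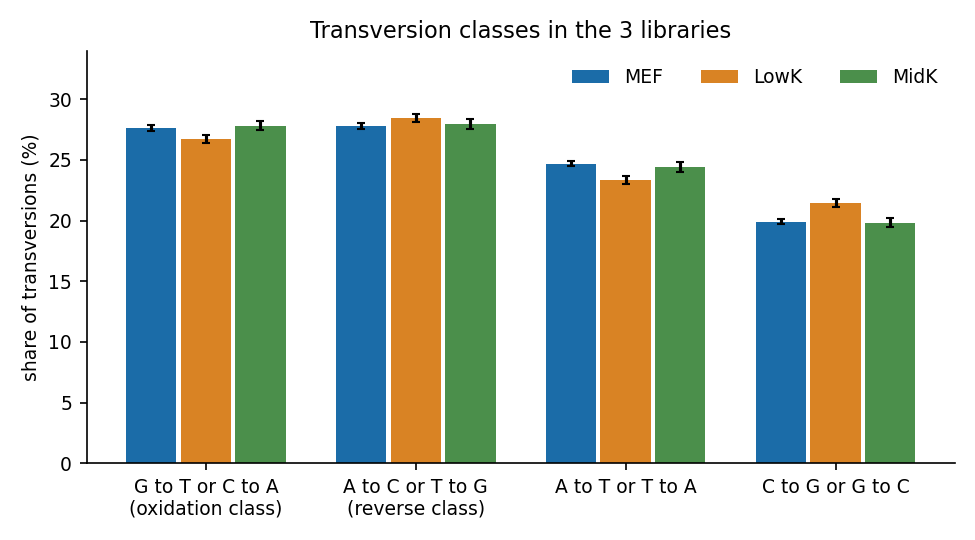
Share of transversions (percent, vertical axis) in each of the 4 strand-folded classes, with 1 bar per library and exact 95% intervals as error bars. The C to G class is the smallest in every library and is larger in LowK (21.5%) than in MEF (19.9%) and MidK (19.8%).

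The classes that keep the number of G and C bases the same were unequal. A to T with T to A held 24.7% of MEF transversions (38843 sites), 23.3% of LowK (16628) and 24.4% of MidK (11740). C to G with G to C held 19.9% (31344), 21.5% (15281) and 19.8% (9542). This gave 0.807 C to G sites per A to T site in MEF (0.795 to 0.819), 0.919 in LowK (0.899 to 0.940), and in MidK it was 0.813 (0.791 to 0.835). The LowK interval lay apart from the other 2. The base composition of the covered sequence was not measured, since no genome sequence beyond promoter windows and microRNAs was used here.

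The ratio of C to G against A to T moved with the distance to the nearest other listed site. For transversions with a listed neighbour at the next base it was 0.633 in MEF, 0.780 in LowK and 0.666 in MidK. With the nearest neighbour 101 to 1000 bases away it was 0.831, 0.925 and 0.865. A neighbour at the next base was found for 5.98% of A to T sites and 4.69% of C to G sites in MEF, 6.30% and 5.35% in LowK, and 6.86% and 5.62% in MidK. Adjacent sites were therefore more frequent among A to T than among C to G sites in each library, with intervals apart. LowK had the highest ratio in each distance class up to 1000 bases. With no neighbour within 1000 bases the ratio was 0.976 in MEF, 0.851 in LowK and 0.896 in MidK. LowK was thus the lowest there, with overlapping intervals. The LowK ratio did not rise steadily with distance, since it was highest, 0.988, at 11 to 100 bases.

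**Figure D2:**
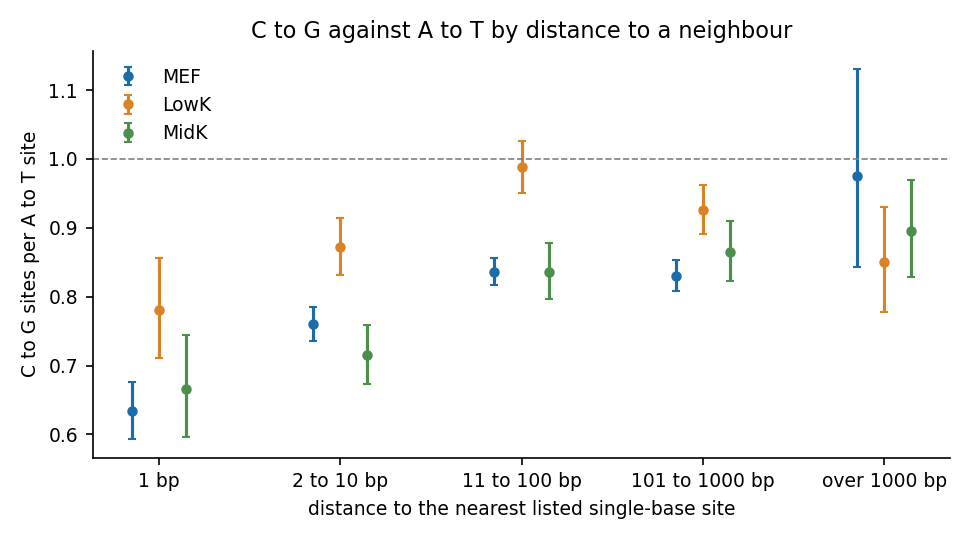
Number of C to G (or G to C) sites per A to T (or T to A) site (vertical axis) by distance in bases to the nearest listed single-base site (horizontal axis), per library, with exact 95% intervals. The ratio is lowest for adjacent sites (0.633 in MEF, 0.780 in LowK, 0.666 in MidK).

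Reads by allele differed between the classes. A site is listed only with a variant read, so the share of variant reads is high by construction, and only its differences between classes are described. The oxidation class had 84.2% variant reads in MEF, 88.0% in LowK, while MidK had 77.3%. The reverse class had 85.5%, 90.9% and 83.1%, higher in each library, and the intervals did not overlap. Intervals of read shares, here and below, treat the reads of 1 site as independent, which they are not. They are too narrow for this reason as well, with up to 233 reads at 1 oxidation site in MidK. A to T had 86.2%, 90.2% and 80.01%, and C to G had 84.7%, 89.1% and 80.1%. The oxidation class was thus the class with the lowest variant share in all 3 libraries, though its interval overlapped that of C to G in MEF. Without the deepest 1% of sites the oxidation share minus the reverse share was smaller, at -1.85 points in LowK and -2.91 points in MidK.

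Both alleles were read more often at oxidation sites than at sites of the reverse class. In MEF, 19.0% of oxidation sites (18.6% to 19.4%) and 17.0% of reverse sites (16.6% to 17.3%) had a read of each base. In LowK it was 10.9% (10.5% to 11.4%) and 8.61% (8.22% to 9.0%), and in MidK 17.0% (16.4% to 17.6%) and 13.8% (13.2% to 14.4%). For transitions it was 17.1%, 9.55% and 15%, between the 2 classes. Split by direction, C to T had 17.8%, 10.3% and 16.03%, and T to C had 16.5%, 8.82% and 14%. The oxidation interval overlapped that of C to T in LowK and MidK, and lay above it in MEF. Of the other transversions, C to G had 18.1% in MEF, 10.1% in LowK and 15.98% in MidK. A to T had 16.9%, 9.22% and 15.97%. The oxidation class was thus the highest transversion class in each library. Its interval overlapped that of C to G in LowK, and those of C to G and A to T in MidK. The reverse interval of MidK lay below those of the other transversion classes. Over sites with at least 2 reads the oxidation class exceeded the reverse class by 1.63 points in MEF, 4.72 in LowK and 6.75 in MidK. At 2-allele sites with 5 or more reads and unequal alleles, the variant base led at 57.6% of 2699 oxidation sites in MEF, 46.5% of 439 in LowK, and in MidK at 24.7% of 648. In the reverse class it was 56.7% of 2353, 56.8% of 352 and 29.8% of 467. The LowK intervals of these 2 classes, 41.7% to 51.3% and 51.5% to 62.1%, lay apart, while those of MEF and MidK overlapped. With at least 2 reads of each allele required, the LowK shares were 35.4% (30.4% to 40.5%) and 44.7% (38.8% to 50.8%), and the intervals overlapped. Over all transversions the majority was with the variant at 57.5% of sites in MEF, 52.0% in LowK and 27.2% in MidK, against 62.7%, 58.4% and 30.0% of transitions. With at least 2 reads of each allele it was 45.0%, 39.6% and 21.7% of transversions, so that B6 then led at most sites of all 3 libraries, and 50.1%, 46.1% and 24.5% of transitions.

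The share of the oxidation class was higher at sites with B6 reads than at sites with variant reads only. Among sites with 1 variant read and no B6 read it was 26.7% in MEF, 26.2% in LowK and 27.4% in MidK. With 2 or more variant reads and no B6 read it was 27.9%, 26.9% and 27.2%. At sites with B6 reads and 1 variant read it was 35.3% (31.7% to 39.1%), 31.2% (28.4% to 34.1%) and 31.5% (29.2% to 33.97%). These are few sites, 679 in MEF, 1039 in LowK and 1475 in MidK. Where the variant had 2 or more reads but no more than B6, the share was 29.8% in MEF, 32.7% in LowK and 31.6% in MidK. With a variant majority it was 29.3%, 28.7% and 28.4%.

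**Figure D3:**
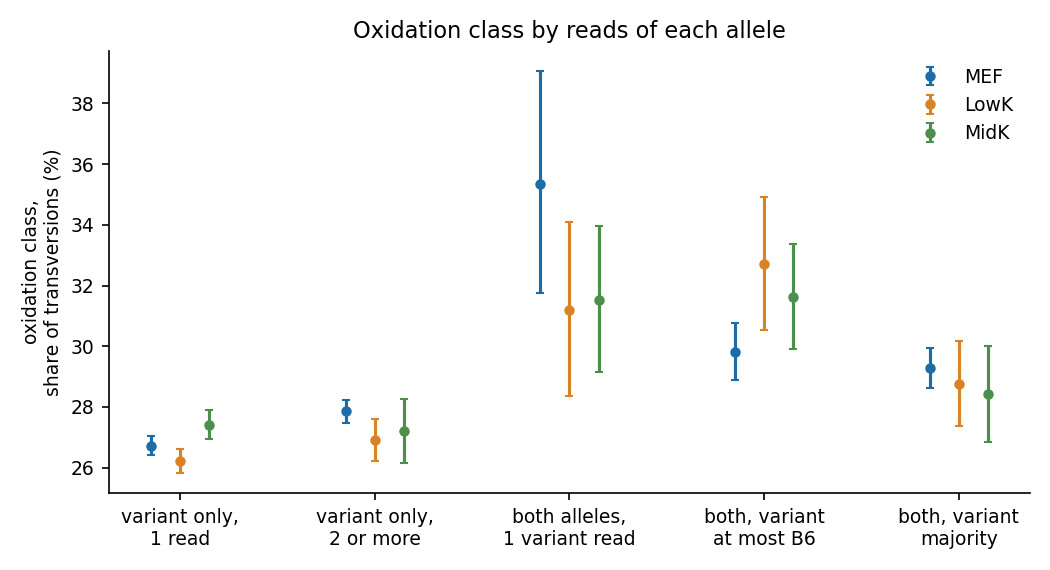
Share of transversions in the oxidation class (percent, vertical axis, starting at about 25%) for 5 kinds of site by the reads of each allele, per library, with exact 95% intervals. In each library the share at sites with at most as many variant as B6 reads (29.8%, 32.7% and 31.6%) lies above that at sites with a single variant read and no B6 read (26.7%, 26.2% and 27.4%).

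A rise of C or G sites with B6 reads was also seen in the transitions, where C to T can be set against T to C in the same way. At sites with 2 or more variant reads and no more than B6, oxidation sites per reverse site numbered 1.13 in MEF, 1.41 in LowK and 1.39 in MidK. The C to T sites per T to C site numbered 1.15, 1.25 and 1.23. The first ratio divided by the second was 0.981 in MEF (0.920 to 1.047), 1.135 in LowK (0.979 to 1.316), and in MidK it was 1.125 (0.999 to 1.267). All 3 intervals hold 1, so no difference between the oxidation class and the transitions was detectable at these sites. Over those of them that were listed in 1 library only, the quotient was 0.977 in MEF (0.911 to 1.047) and 1.153 in LowK (0.974 to 1.364). The MidK quotient there was 1.150 (1.010 to 1.309). Only the MidK interval excludes 1, and the intervals are too narrow, as stated above. At sites with a single variant read and no B6 read the quotient was 0.916 in MEF (0.896 to 0.937), 0.918 in LowK (0.893 to 0.944), and in MidK it was 0.994 (0.961 to 1.028). There the oxidation class was the smaller, relative to transitions, in MEF and LowK.

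The ratio was higher still at sites with many B6 reads in 2 libraries. With 6 or more B6 reads, oxidation sites per reverse site were 1.63 in MEF (1.24 to 2.16), 1.13 in LowK (0.68 to 1.89), and in MidK it was 2.14 (1.55 to 2.97). The C to T ratio at the same depth was 1.5, 2.29 and 1.47. The quotient was 1.083 in MEF (0.782 to 1.501), 0.494 in LowK (0.264 to 0.923), and in MidK it was 1.459 (0.994 to 2.142), so the libraries did not give 1 direction. Without the 1 Mb window that held the most such sites, the oxidation ratio was 1.52 in MEF, 1 in LowK and 2 in MidK. In MidK the excess was also found where the variant had at most 30% of at least 5 reads, with 152 oxidation sites and 76 of the reverse class. At sites with no B6 read, the ratio did not move in 1 direction with the number of variant reads. In MEF it was 0.926 (0.908 to 0.944) at 1 read, 1.05 (1.02 to 1.08) at 2, 1.04 at 3 and 0.974 (0.915 to 1.04) at 4 or more. In LowK it was 0.903, 0.966, 0.948 and 0.848 (0.703 to 1.02), and for MidK 0.963, 0.973, 0.809 and 0.725 (0.508 to 1.03).

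**Figure D4:**
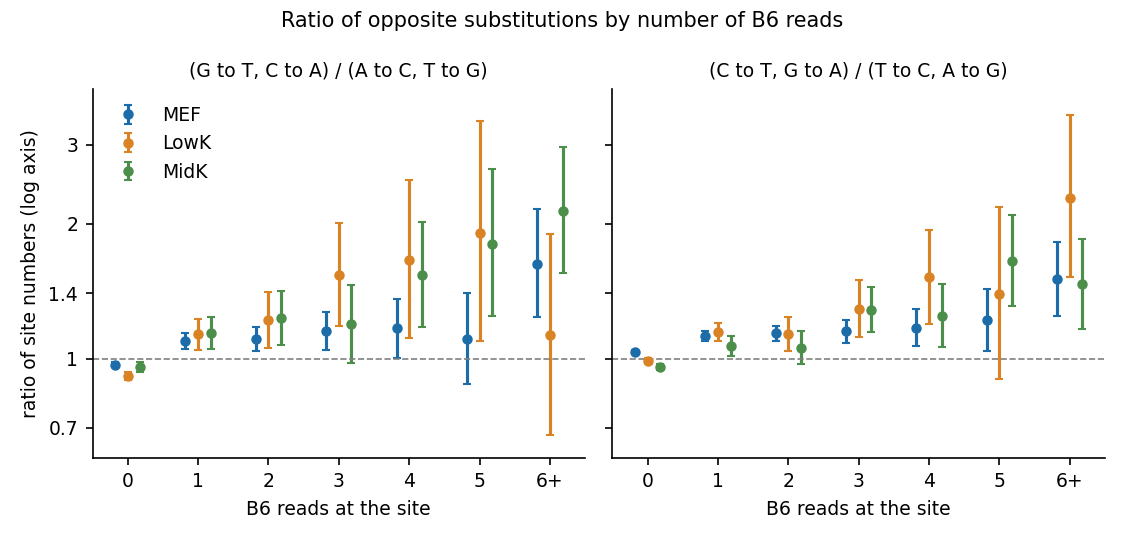
Number of oxidation class sites per reverse class site (left) and of C to T (or G to A) sites per T to C (or A to G) site (right), on a log axis, by the number of B6 reads at the site, per library, with exact 95% intervals. Both ratios lie near 1 at sites with no B6 read and above it at sites with 1 or more. The interval reaches 1 on the left at 5 B6 reads in MEF, 6 or more in LowK and 3 in MidK, and on the right at 5 in LowK and 2 in MidK.

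Fewer transversions than transitions were listed again in another library. Of the LowK transversions, 13547 (19.0%, 18.7% to 19.3%) were listed in MEF with the same position and bases, against 21.0% of transitions and 20.3% of all single-base sites. Of the MidK transversions, 7275 (15.1%, 14.8% to 15.4%) were listed in MEF, against 17.5% of transitions and 16.6% of all sites. Between MidK and LowK it was 4054 (8.43%, 8.18% to 8.68%), against 10.1% and 9.45%. Transversions were below transitions in all 3 pairs, with intervals apart. The pairs share libraries, so they are not independent.

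The C to G class was listed again most often: 19.5% of LowK sites in MEF, 16.2% of MidK sites in MEF and 9.42% of MidK sites in LowK. For the oxidation class it was 19.0%, 14.7% and 8.15%, for the reverse class 18.6%, 15.3% and 8.46%, and for A to T 19.1%, 14.5% and 7.90%. The C to G interval lay apart from those of the oxidation class and A to T in both MidK comparisons and not in LowK against MEF. This turned with depth. With at least 2 reads, LowK in MEF had 21.6% of C to G (20.5% to 22.8%) against 19.1% of oxidation sites (18.1% to 20.1%), apart, while MidK in LowK had 10.4% (9.27% to 11.5%) against 9.29% (8.43% to 10.2%), overlapping. Sites with B6 reads and 1 variant read were listed again least often, 6.83% of those of LowK and 4.75% of those of MidK in MEF, where single-read variant sites reached 18.6% and 15.9%. Different variant bases at 1 position were rare: 65 of 13612 positions with a LowK transversion and any single-base site in MEF. It was 80 of 7355 for MidK transversions and MEF sites, and 68 of 4122 for MidK transversions and LowK sites.

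**Figure D5:**
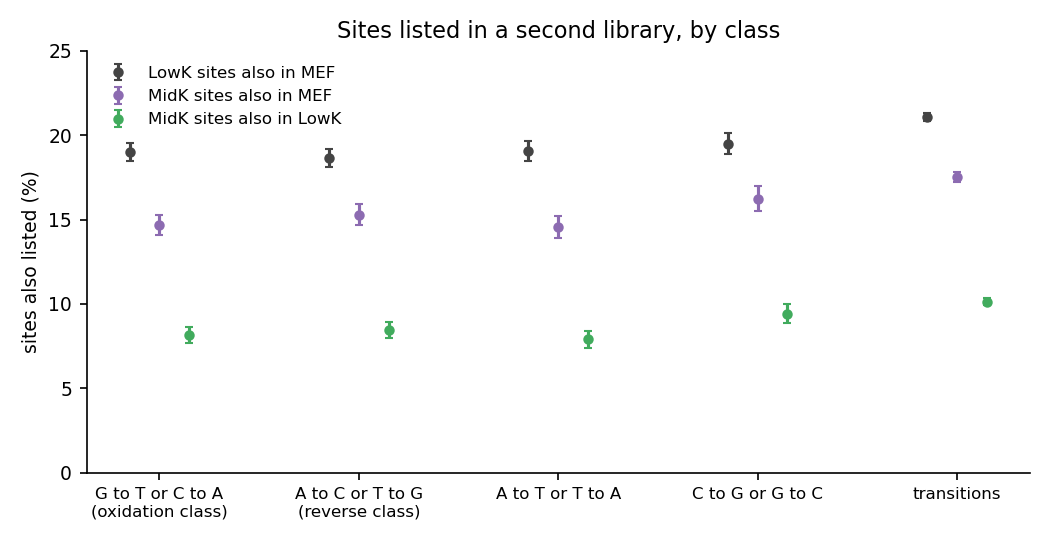
Percent of the sites of 1 library that were also listed in a second one (vertical axis) for the 4 transversion classes and for transitions, for 3 pairs of libraries, with exact 95% intervals. The transitions lie highest in each pair (21.0%, 17.5% and 10.1%).

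The make-up of the list moved with sharing. Transversions were 38.5% of the MEF sites found in no other library and 35.7% of those found in all 3, and for MidK 41.5% and 35.7%. C to G sites per A to T site rose from 0.791 at sites found in MEF alone to 1.08 at sites found in all 3 libraries, and from 0.787 at sites found in MidK alone. In all, 1069 transversions were listed in all 3 libraries: 314 of the reverse class, 268 of the oxidation class, 253 C to G and 234 A to T. The oxidation to reverse ratio among them was 0.854 (0.722 to 1.008). Of the 1069, 606 had variant reads only in each library and 50 had both alleles in each.

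At these 1069 sites the same positions can be compared across libraries. The variant base had 68.8% of reads in MEF (67.5% to 70.0%), 75.0% in LowK (73.5% to 76.4%), and in MidK it was 69.1% (67.7% to 70.4%). Oxidation sites had 63.9%, 72.0% and 59.7%, reverse sites 66.0%, 76.9% and 69.6%, A to T sites 71.2%, 75.3% and 71.7%, and C to G sites 77.1%, 75.3% and 77.4%. These shares rest in part on 18 deep sites in 1 gene, Cldn34d. Without them, a choice made after seeing the data, all transversions had 78.3%, 80.4% and 76.6%. Oxidation sites then had 75.1% (72.1% to 77.9%), 80.6% (77.3% to 83.5%) and 69.0% (65.8% to 72.1%), and reverse sites 83.3% (80.8% to 85.6%), 90.3% (87.8% to 92.4%) and 90.8% (88.2% to 92.9%). The oxidation class was below the reverse class in each library with and without the gene, and the gap was widest in MidK. With the gene, their intervals overlapped in MEF and LowK. Without it, C to G sites had 75.7% in MEF, 75% in LowK and 76.6% in MidK. A to T sites then had 79.2%, 77.7% and 73.2%. The reverse class was thus highest in each library without the gene. There the oxidation class was lowest in MEF and MidK, and above C to G and A to T in LowK. In each case its interval overlapped that of another class. Other deep sites were kept in these shares, and leaving them out was not tested. With Cldn34d counted, X:143483048 alone held 80 of 244 B6 and 124 of 820 variant reads of the C to G sites in MEF.

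Among oxidation, reverse and A to T sites found in all 3 libraries, the deepest site of each class lies in Cldn34d. This claudin family gene has near copies on the chromosome, so its reads may be split between copies and its values are uncertain. At X:76598916 (T to G, reverse class) the B6 and variant reads were 169 and 63 in MEF, 70 and 24 in LowK, and 181 and 45 in MidK. The B6 base had more reads in each library. At X:76598952 (C to A, oxidation class) they were 90 and 38, 63 and 30, and 92 and 35, again with B6 ahead throughout. At X:76598682 (T to A), in the same stretch, the variant was ahead throughout, with 4 and 109, 1 and 24, and 3 and 81. Sites less than 300 bases apart thus went in opposite directions in each library.

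The deepest transversion found in all 3 libraries was X:143483048 (C to G), in no annotated gene. Its B6 and variant reads were 80 and 124 in MEF, 94 and 125 in LowK, and 62 and 151 in MidK. The variant had the majority in each library, and its lead was widest in MidK. The deepest oxidation site outside Cldn34d, X:169994675 (C to A), also lies between genes. It had 40 and 28 in MEF, 30 and 24 in LowK, and 77 and 59 in MidK, so B6 led in each. At X:170005344 (C to G) the variant led, with 17 and 25, 22 and 60, and 10 and 57.

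Genes held 33.7% of the MEF transversions, 32.7% of the LowK and 28.6% of the MidK transversions. C to G was more frequent in gene bodies than between genes, at 21.5% against 19.1% in MEF, 23.9% against 20.3% in LowK and 21.5% against 19.2% in MidK, with intervals apart in each. The oxidation class was less frequent in gene bodies in MEF, 27.1% (26.7% to 27.5%) against 27.9% (27.6% to 28.2%). In LowK (26.4% and 26.9%) and MidK (27.6% and 27.9%) the intervals overlapped.

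Of the 1069 transversions found in all 3 libraries, 404 lay in gene bodies. The genes with most of them were Cldn34d (18), Bcor (8), the pseudogene LOC115489104 (7), the noncoding 4933407K13Rik (7) and Atg4a (6). Il1rapl1, a synaptic receptor of the interleukin 1 family, had 5. Dmd (dystrophin), Tenm1 (a teneurin), Aff2 and Mageb18 had 4 each. Bcor (X:12036737 to 12160516) encodes a BCL6 corepressor of a Polycomb complex. It had 150 transversions in MEF, 116 in LowK and 45 in MidK, of which 16% (10.5% to 22.9%), 24.1% (16.7% to 33.0%) and 13.3% (5.05% to 26.8%) were of the oxidation class. The MEF and MidK intervals lie below the share of all transversions of the same library, while the LowK interval holds it. Atg4a, a protease of autophagy, had 35.0% of 117, 32.2% of 90 and 27.6% of 58.

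No gene met the rule for a difference in oxidation share between 2 libraries, a 1.5-fold difference with intervals apart and at least 30 transversions in both. This was 0 of 212 genes (0%) for LowK against MEF, 0 of 104 for MidK against MEF and 0 of 105 for MidK against LowK. With 1 site per 300 bases Tenm1 met it, at 17.0% of 159 in LowK and 31.4% of 366 in MEF.

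Of the genes in 7 lists, Cnbp2 and Plod3 were not found on chromosome X in the RefSeq table. Genes known to escape X inactivation, the silencing of 1 X chromosome in female cells, held 1230 transversions in MEF, 509 in LowK and 288 in MidK. Their oxidation share was 27.8%, 23.6% and 25.7%, and their C to G share 23.9% (21.5% to 26.4%), 29.3% (25.4% to 33.4%) and 22.2% (17.6% to 27.5%). The C to G share of all transversions, 19.9% and 21.5%, lies below these intervals in MEF and LowK. Over all gene bodies it was 21.5% (21.1% to 21.8%) and 23.9% (23.3% to 24.4%), which the MEF interval of the list is not apart from. Mid1, a ubiquitin ligase gene in this list, had an oxidation share of 33.7% of 415 in MEF (29.2% to 38.5%), 27.3% of 121 in LowK and 28.2% of 71 in MidK. Kdm6a, a histone H3 lysine demethylase, had 17.7% of 96, 24% of 25 and 18.2% of 22.

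Genes of the X-inactivation centre held 385, 181 and 104 transversions with an oxidation share of 26.2%, 24.9% and 24.04%. Ftx, a noncoding gene there, had 27.7% of 94, 20.5% of 44 and 16.1% of 31. Tsix, the antisense partner of the silencing RNA Xist, had 26.7% of 60, 27.6% of 29 and 14.3% of 28. Their intervals are wide, and reads of overlapping genes cannot be told apart here. Stem cell and germline genes held 535, 254 and 147, with 26.5%, 28.0% and 30.6%. Klf8, a zinc finger factor, had 25.4% of 177, 28.8% of 80 and 36.7% of 49, and Tex11, a meiosis gene, 24.4% of 180, 30.8% of 78 and 25.5% of 51.

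Genes of fibroblasts and matrix held 1671, 651 and 342, with an oxidation share of 25.7% (23.7% to 27.9%), 27.5% and 26.3%. Col4a5, a basement membrane collagen chain, had 21.6% of 236, 29.3% of 92 and 14.7% of 68. Gpc3, a glypican, had 24.2% of 389, 24.4% of 135 and 33.3% of 72. The very long genes held most listed sites of any list, 9294, 3349 and 2592, with oxidation shares of 27.9%, 26.7% and 27.4%, and Dmd alone held 1947, 815 and 650 with 27.7%, 26.9% and 27.7%. These lie at the share of the whole chromosome. Immune genes held 139, 63 and 37 transversions, of which 23.0% (16.3% to 30.9%), 27.0% (16.6% to 39.7%) and 32.4% (18.01% to 49.8%) were of the oxidation class. Neural genes held 442, 178 and 95, with 30.1% (25.8% to 34.6%), 29.8% (23.2% to 37.1%) and 29.5% (20.6% to 39.7%). All of these intervals hold the share of the whole chromosome. Syn1, a synaptic vesicle protein gene, had the highest share in the neural list, 43.1% of 65 in MEF (30.8% to 56.0%) and 47.5% of 40 in LowK (31.5% to 63.9%), with 34.8% of 23 in MidK. Syn1 contains Timp1, a metalloproteinase inhibitor gene, whose 7 MEF sites are counted in both genes.

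Along the chromosome, the lower oxidation share of LowK was spread out. In 18 windows of 10 Mb the share was lower in LowK than in MEF in 17, and the C to G share was higher in LowK in 18, with intervals apart in 0 and 2 windows. Against MEF, MidK was higher in oxidation share in 12 windows and lower in 6. None of the 18 windows met the rule for a difference in any of the 3 pairs (0%). The last window, at the distal end of the chromosome, held few sites but the highest oxidation share of each library. It was 40.0% of 50 for MEF (26.4% to 54.8%) and 41.7% of 60 for LowK (29.1% to 55.1%), while MidK had 44.0% of 84 (33.2% to 55.3%). It takes in the X:170005344 site described above, and its first 1 Mb held 46 of the 336 MidK transversions with 6 or more B6 reads.

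RefSeq promoter windows, 1223 windows of 1046 genes covering 348423 positions, held 378 transversions in MEF (0.240% of all, 0.217% to 0.266%), 339 in LowK (0.476%, 0.427% to 0.529%), while MidK had 124 (0.258%, 0.214% to 0.307%). The B6 base of every single-base site in them, 1028, 899 and 333 sites, was the RefSeq base. LowK thus had the larger share of its list at promoters, as it did for transitions (0.255%, 0.484% and 0.294%). C to G made up 23.5% of promoter transversions in MEF, 31.3% in LowK and 29.0% in MidK. Elsewhere it made up 19.9%, 21.4% and 19.8%, and the intervals lay apart in LowK and MidK. Of the window positions 51.6% were C or G. The base composition elsewhere was not measured, so its part in this difference was not tested. With promoter windows left out, C to G sites per A to T site were 0.806, 0.917 and 0.812, close to the values with them.

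The motif CG, which reads the same on both strands, was present in 92.7% of the promoter windows. Over all C and G bases of the windows, whether or not reads covered them, 12.4% were part of a CG pair. The promoter sites of the 3 libraries were pooled for this, each different site counted once. Of the promoter sites of the oxidation class, 33.3% of 165 were (26.2% to 41.1%), of C to G sites 32.5% of 169 (25.5% to 40.2%), and of C to T transitions 33.4%. The 3 kinds of site were alike in this within their intervals, and each lay above the share of all C and G bases. A site can be listed only where reads fell, and the part of coverage in this difference was not tested. In the sequences printed above, the capital is part of a CG pair in Vbp1, Nup62cl, Klhl15, Gpc4, Fgd1 and Timm8a1, and not in Phka1.

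Promoter transversions were often listed again, 38.1% of those of MEF, 43.1% of LowK and 62.9% of MidK in at least 1 other library. Over all transversions it was 12.5%, 23.2% and 21.3%. The promoter sites were also deeper. They carried 850 variant and 167 B6 reads at 378 sites in MEF, 760 and 206 at 339 in LowK, and 221 and 74 at 124 in MidK. All transversions had 2.15, 1.58 and 1.75 reads per site. The part of depth in the higher sharing was not tested. In all 3 libraries there were 26 positions in the windows of 23 genes, 9 of C to G, 8 of the oxidation class, 5 of A to T and 4 of the reverse class. At Vbp1 the B6 and variant reads were 0 and 5 in MEF, 0 and 1 in LowK, and 0 and 1 in MidK. No B6 read was seen there in any library. At Gpc4 they were 0 and 4, 0 and 1, and 0 and 2, also without a B6 read.

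Klhl15, by contrast, had 0 and 7 in MEF but 4 and 3 in LowK and 3 and 3 in MidK. B6 reads were thus seen there only in the reprogramming libraries, at depths of 7, 7 and 6 reads. At the Atp7a site shown there were 2, 2 and 1 variant reads and no B6 read in any library. Gpkow, a spliceosome protein gene, had a G to T difference at position -1 with 0 and 3, 1 and 2, and 0 and 1. At these depths a missing B6 read does not show that the base is absent.

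Of 86 microRNA hairpins of chromosome X in the RefSeq table, covering 7111 bases, 5 held a transversion, and of 157 mature microRNAs 1 did. In mmu-miR-718 the substitution is G10U, counted from the 5′ end, outside the seed printed above. It belongs to the oxidation class and was listed in all 3 libraries, with B6 and variant reads of 1 and 2 in MEF, 1 and 5 in LowK, and 0 and 1 in MidK. The other hairpins, of Mir883a, Mir224, Mir3112 and Mir7093, each had a transversion in 1 library with 1 variant read.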

How the data were processed

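LSD1-bound chromatin was sequenced on an Illumina instrument, per the series' design text. The submitters' processing notes name BWA and the build mm10, and variants were called with bcftools mpileup and read by allele, per the series' design text. For their versions, the filters and any removal of duplicates, nothing is given in the sources used here. Per the file headers, the deposited counts are the depth and the reads with the B6 and the variant base at each listed chromosome X position. The deposited score, named reliability per the file headers, rates each call. It was used for MEF and LowK in 1 alternative. In the MidK file 1 column of such scores has a heading that matches no sample label and was not used.

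Groups came from the sample titles. Single-base sites were sorted into 4 strand-folded transversion classes, and shares and ratios of 2 counts were given exact 95% Clopper-Pearson intervals (Python 3.11.15, pandas 2.3.3, numpy 2.4.6, scipy 1.17.1). Quotients of 2 ratios have a normal interval on the log scale. Intervals cover counting error only. With 1 library per group no p-value was computed. A site counts as shared when position and both bases match. The scripts were tested on simulated data with known class ratios. Genes (2512 on chromosome X), promoter windows and microRNAs came from RefSeq tables of GRCm38.p6, and the gene table gives no exons, so exonic and intronic sites were not separated.

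Named genes are the 10 with the most transversions in all 3 libraries (ties by their number in MEF), genes that differ in oxidation share by the rule given, and members of 7 gene lists with at least 10 transversions in MEF. From the latter the text takes examples. The class definitions, lists and rules were chosen with earlier results of these data known. Alternatives were positions with 2 entries kept, a reliability of at least 20, at least 2 reads, at least 2 reads of each allele, 1 site per 300 bases, no deepest 1%, no site within 10 bases of an insertion or deletion, and no site listed in another library. Leaving out promoter windows, the distal end of the chromosome, or Cldn34d was added after seeing the data. The gene that met the rule only without the deepest 1% of sites is not reported here.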

Additional observations from a re-analysis of the deposited data

Results flagged for a closer look

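Some of the deposited depth at transversions belonged to neither the B6 nor the variant base, and no comparison above used these reads. They were 3.47% of the depth in MEF (3.41% to 3.53%), 3.12% in LowK (3.02% to 3.22%), while MidK had 4.49% (4.35% to 4.63%). At transitions the same share was 3.45%, 2.83% and 3.76%, so it was higher at transversions in LowK and MidK. Such reads stood at 5.70% of transversion sites in MEF, 4.01% in LowK and 5.69% in MidK. Their cause was not tested.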

How the results depend on the processing

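No paired analysis was possible because each group holds 1 library, and for the same reason none could be left out. Depth is a limit: most LowK and MidK sites rest on 1 read, neighbouring sites share reads, and a list holds only sites with a variant read. Of 257 main values recomputed under alternatives, 219 stayed within their intervals (counts: within 1.5-fold), 36 moved and 2 turned. This tally is no measure of stability, since some values could hardly move. Keeping positions with 2 entries and leaving out promoter windows change few sites, and all 30 values of each stayed. Of the values at sites with at least 2 reads, 14 moved, 1 turned and 15 stayed. Some of these 15 could not move, since every 2-allele site has at least 2 reads. With at least 2 reads, the oxidation share was 28.5% in MEF, 27.9% in LowK and 28.8% in MidK. The oxidation to reverse ratio was 1.06, 1.02 (turned from below 1) and 1.08. The transversion share became 37.8% in MEF and 37.5% in LowK. Of transversions, 19.8% of LowK were in MEF, 13.5% of MidK in MEF and 9.64% of MidK in LowK. The oxidation class exceeded the reverse class in 2-allele sites by 4.72 points in LowK and 6.75 in MidK, and its variant read share differed by -3.85 and -6.76. With a reliability of at least 20, not run for MidK, the oxidation share was 28.3% and 27.6%, the ratio 1.05 in MEF and 1.003 in LowK (turned), and the transversion share 37.3% and 36.8%. There 22.2% of LowK transversions were in MEF, the 2-allele difference was 1.24 and 3.02, and the MEF read share difference -0.665. With 1 site per 300 bases, 1 gene differed between LowK and MEF, the MEF oxidation share at sites with at most as many variant as B6 reads was 30.9%, 7.76% of MidK transversions were in LowK and 14.6% in MEF, and the MidK read share difference was -4.43. At sites listed in 1 library only, transversions were 38.5% in MEF, 38.9% in LowK and 41.5% in MidK, with a MidK read share difference of -5.0. Without the deepest 1%, 1 gene differed between MidK and LowK, and the read share differences were -1.85 in LowK and -2.91 in MidK. Without the distal end that of MidK was -5.01. The cause of these shifts was not tested beyond the sites each alternative removes. Keeping positions with 2 entries, leaving out promoter windows and leaving out sites near insertions or deletions moved none of these values past its interval.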
